A study of Mus musculus with 14 samples.

Results

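The translation initiation and elongation factors are the proteins that place a ribosome on the start codon of a messenger RNA and then carry it along the coding sequence. They were taken as every probe set whose platform gene symbol began with Eif followed by 1 to 6, or with Eef1 or Eef2, with the kinases named Eif2ak and the genes Eif2s3x and Eif2s3y left out. This gave 55 genes with 1 probe set each, out of 19505 gene symbols measured. Taken by symbol, they include genes that are not such factors themselves, among them 5 methyltransferases of elongation factors, Eef2k and Eef1e1. All 55 are called factors here. RNA came from mouse hematopoietic progenitor cells (HPCs), which are lineage-negative bone marrow cells separated by autoMACS and cultured for 48 h. The cells were then exposed, on retronectin-coated plates, to retrovirus made by the GP+E86 packaging line. The vector was MSCV-NMyc-IRES-YFP (NMyc) or MSCV-IRES-YFP (Ctrl), so every group carried a retrovirus with the fluorescent marker YFP. The mice were homozygous (Hom, Polgmut/mut), heterozygous (Het, Polgwt/mut) or wild type (WT, Polgwt/wt) for the mutated form of Polg, which encodes the polymerase that copies mitochondrial DNA. There were 2 arrays each of Hom-NMyc, Het-NMyc, WT-NMyc and Hom-Ctrl, and 3 each of Het-Ctrl and WT-Ctrl. The labels call them biological replicates but do not say which came from the same animals, so a p-value here reflects only how far these samples spread. Neither the animals' age and number nor any sorting of cells for YFP is given in the sources used here. The series asked how N-Myc and somatic mutations of mitochondrial DNA change gene expression.

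Initiation begins when eIF2 brings the initiator tRNA to the small ribosomal subunit, together with eIF1, eIF1A, eIF5 and the large scaffold eIF3. The eIF4F complex, made of the cap-binding protein eIF4E, the helicase eIF4A and the scaffold eIF4G, brings the messenger RNA. eIF2 leaves bound to GDP and is reloaded with GTP by eIF2B, the exchange factor that the stress-activated eIF2 kinases block. eEF1 and eEF2 then deliver aminoacyl-tRNA and move the ribosome. Several of these factors, eIF4E among them, are textbook targets of the Myc family of transcription factors, and N-Myc is one of its members.

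Myc proteins, paired with Max, bind the sequence CACGTG, known as the E-box. RefSeq promoter windows of build GRCm38.p6, each spanning 250 bases before to 50 bases after an annotated start, were available for 40 of the 55 genes, in 54 windows. CACGTG, which reads the same on both strands, was found in 14 of these 54 windows (25.9%), against 2349 of all 32851 windows (7.15%). By gene, 12 of the 40 factors (30.0%) held it in any window, against 9.26% of the 15691 genes that were tested on the arrays and had a window. Genes with several annotated starts have overlapping windows, so windows are not independent. Among the factors that rose with NMyc, 8 of 31 (25.8%) held CACGTG, and among those that did not rise, 4 of 9 (44.4%). The related forms CACGCG and CGCGTG, which are reverse complements of each other, were present in 14.8% of the factors' windows and 9.27% of all windows. A match describes the letters in a window and does not show binding. The windows below were chosen because they hold CACGTG and belong to genes with different responses: Eif4e, Eif5a and Eif4a1 rose with NMyc, Eif3f fell, and Eef2 and Eif1b did not pass the test. Each reads 5′ to 3′ on the gene's strand, upstream of an annotated start, with CACGTG in capitals. For Eif4e all 250 upstream bases of 1 annotated start are given because they hold 2 matches, at -228 and -64 relative to that start. The window of its other annotated start held no CACGTG. Eif5a had several windows, some without CACGTG, and its match nearest to a start is shown.
Eif4e, chr3:138527018-138527267, strand +: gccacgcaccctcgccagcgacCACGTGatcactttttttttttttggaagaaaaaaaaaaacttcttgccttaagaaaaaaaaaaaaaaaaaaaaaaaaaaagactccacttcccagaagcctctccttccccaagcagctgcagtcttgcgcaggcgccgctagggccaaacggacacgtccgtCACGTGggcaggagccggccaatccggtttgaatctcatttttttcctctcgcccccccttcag
Eif5a, chr11:69921428-69921487, strand -: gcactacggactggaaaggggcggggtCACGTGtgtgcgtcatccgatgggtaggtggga
Eif4a1, chr11:69672580-69672639, strand -: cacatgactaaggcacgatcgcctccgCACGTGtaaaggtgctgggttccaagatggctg
Eif3f, chr7:108934320-108934379, strand +: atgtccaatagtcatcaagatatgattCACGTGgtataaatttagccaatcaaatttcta
Eef2, chr10:81176561-81176620, strand +: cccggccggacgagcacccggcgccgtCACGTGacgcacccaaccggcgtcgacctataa
Eif1b, chr9:120492555-120492605, strand +: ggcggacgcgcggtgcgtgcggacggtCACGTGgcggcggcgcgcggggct

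Mycn, the gene carried by the vector, had log2 values of 12.15, 12.27 and 12.38 (lowest, median, highest) on the 6 NMyc arrays and 7.43, 7.60 and 9.77 on the 8 Ctrl arrays, a mean difference of 4.31 (SE 0.23, adjusted p = 2.64e-09). The value of 9.77 belonged to Hom-Ctrl replicate 1, above the next highest Ctrl array at 7.76. Polg differed by 0.30 between NMyc and Ctrl (SE 0.11, adjusted p = 0.0488) and by -0.26 between Hom-Ctrl and WT-Ctrl (SE 0.19, adjusted p = 0.539). The array reads the transcript level and does not check the point-mutated allele. The sample codes in the labels fall into 3 runs of consecutive numbers, and run 1 holds only the replicate 1 arrays of the 3 Ctrl groups. Eif2s3y, a Y-linked gene, read 3.59 to 3.96 on these 3 arrays and 8.23 to 9.78 on the other 11. On these 3 arrays Eif2s3y lay below the negative control sets' median, which was 4.47 to 4.54. These 3 arrays therefore stand apart from the other 11, which include all NMyc arrays, and counts are also given without them. Whether the animals' sex differed was not tested, and such a difference would fall on Ctrl arrays only. Among markers of the cell type, Kit, Gata2, Myb and Cd34 exceeded the negative control sets' median on every array, whereas Flt3 was so on 3 of 6 NMyc and 4 of 8 Ctrl arrays.

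The transcripts of most translation factors were higher with NMyc. Averaged over the genotypes, 40 of 55 (72.7%) were higher in NMyc than in Ctrl cells at an adjusted p under 0.05, whereas 18.2% of all 22206 tested probe sets were. Only 2 factors, Eif4e3 and Eif3f, were lower (3.6%), against 15.5% of all tested, and 13 did not pass. The median log2 change over the 55 factors was 0.44, and over all tested probe sets it was -0.022. For 26 factors (47.3%) all 6 NMyc arrays lay above all 8 Ctrl arrays, which held for 10.5% of all probe sets. No factor had all NMyc arrays below all Ctrl arrays, which held for 6.58% of probe sets. Without the 3 run 1 arrays, 40 factors were higher and 1 was lower, with a median change of 0.46. Of the 40 that rose, 37 were higher in all 5 differences between an NMyc and a Ctrl array of the same genotype and run, and the exceptions were Eif3c, Eif4a3l1 and Eif5a2. Those arrays also gave the calls, and the share over all probe sets was not counted, so this is no separate support. In a mixed culture, a difference in the cells present and a difference in RNA per cell cannot be told apart.

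**Figure D1:**
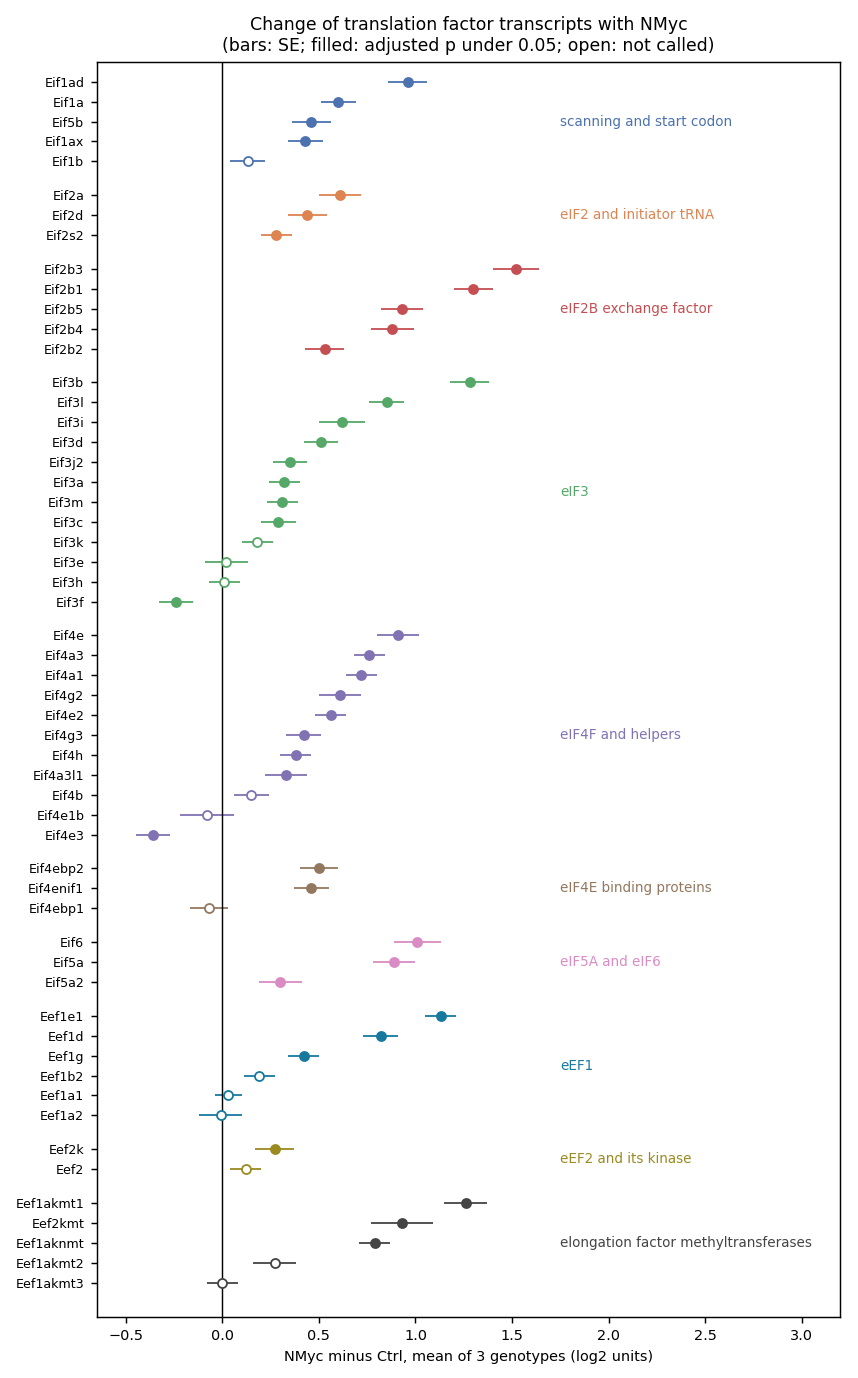
Log2 change of each of the 55 factors (NMyc minus Ctrl, mean of the genotypes), grouped by role. Points are changes, bars are standard errors, filled points passed an adjusted p of 0.05. All 5 eIF2B subunits lie to the right of 0, Eif3b stands apart within eIF3, and Eif4e3 and Eif3f are the filled points to the left of 0.

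Markers of more mature blood cells moved with the vector as well. All 4 measured megakaryocyte markers fell with NMyc, and their mean log2 level was 7.22 to 7.47 on NMyc arrays and 9.37 to 9.95 on Ctrl arrays. All 3 eosinophil markers fell (7.67 to 8.17 on NMyc arrays, 9.10 to 9.75 on Ctrl arrays), as did 4 of 5 monocyte and macrophage markers (8.23 to 8.41 on NMyc arrays, 9.34 to 10.32 on Ctrl arrays). Of 6 mast cell and basophil markers, 5 fell and 1 rose (9.13 to 9.60 on NMyc arrays, 9.99 to 10.83 on Ctrl arrays). Of 8 neutrophil markers, the late granule genes Ltf, Ngp and Camp and also S100a8 and S100a9 fell, and the early granule genes Elane, Mpo and Prtn3 rose (11.66 to 11.88 on NMyc arrays, 11.93 to 12.49 on Ctrl arrays). No erythroid, B cell, or T and NK cell marker passed the test. Of the progenitor markers, Cd48 rose (0.48, SE 0.12, adjusted p = 0.00582), and Cd34 (-0.97, SE 0.10, adjusted p = 2.16e-06) and Kit (-0.30, SE 0.10, adjusted p = 0.036) fell. The part of these shifts in the results for the translation factors was not tested.

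All 5 subunits of eIF2B rose, with a median log2 change of 0.93, the highest of the role groups. This count and those of the role groups below stand beside 18.2% higher and 15.5% lower of all tested probe sets. Eif2b3, the gamma subunit that supports the catalytic one, had log2 values of 9.30 and 9.56 in WT-NMyc, 9.78 and 9.59 in Het-NMyc, and 9.63 and 9.70 in Hom-NMyc. Its Ctrl values were 8.36, 7.53 and 7.88 in WT, 7.87, 8.03 and 8.03 in Het, and 8.32 on both Hom arrays. No NMyc array fell within the Ctrl range, and the change of 1.52 (SE 0.12, 2.87-fold, adjusted p = 6.56e-08) was larger than that of any other factor. Eif2b1, the alpha subunit through which the complex senses phosphorylated eIF2, read 8.70, 9.05 and 9.19 (lowest, median, highest) with NMyc and 7.53, 7.67 and 8.02 with Ctrl. Its change was 1.30 (SE 0.10, 2.46-fold, adjusted p = 7.97e-08), again without overlap.

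Eif2b5, the catalytic epsilon subunit, ranged from 6.84 to 7.23 on NMyc arrays and from 5.73 to 6.41 on Ctrl arrays, a log2 change of 0.93 (SE 0.11, adjusted p = 4.88e-06). The delta subunit Eif2b4 ranged from 8.13 to 8.45 with NMyc and from 7.15 to 7.67 with Ctrl (change 0.88, SE 0.11, adjusted p = 7.15e-06). Eif2b2, the beta subunit, changed least of the complex, by 0.53 (SE 0.10, adjusted p = 0.000467), and its NMyc arrays (9.07 to 9.43) still lay above its Ctrl arrays (8.49 to 9.04). None of the 5 subunits had overlapping vector groups.

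**Figure D2:**
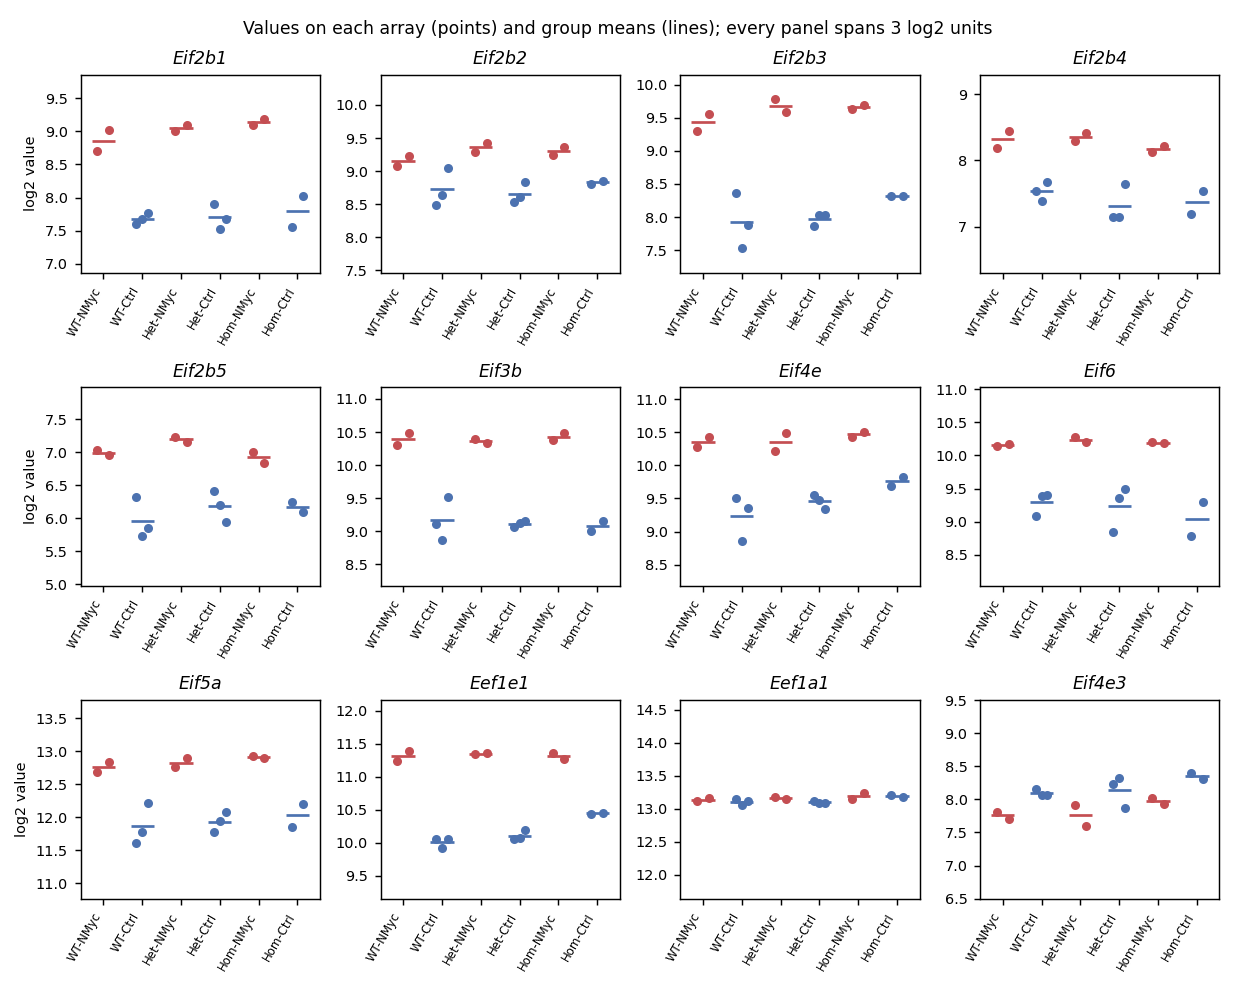
Log2 value on each array (points) and group mean (lines) for 12 factors, with NMyc in red and Ctrl in blue within each genotype, and every panel spanning 3 log2 units. The eIF2B subunits, Eif3b, Eif4e, Eif6, Eif5a and Eef1e1 show no overlap between the vectors, Eef1a1 is level near 13.1, and Eif4e3 is lower with NMyc.

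The substrate of eIF2B and related tRNA-handling factors also rose, all 3 of 3 measured. Eif2a encodes eIF2A, a separate protein that can bind initiator tRNA without GTP, and its log2 values were 9.51, 9.60 and 9.94 (lowest, median, highest) with NMyc and 8.46, 9.11 and 9.34 with Ctrl (change 0.61, SE 0.11, adjusted p = 0.000262). Eif2s2, the beta subunit of eIF2 itself, rose by 0.28 (SE 0.08, adjusted p = 0.0113), with NMyc arrays at 11.63 to 11.88 and Ctrl arrays at 11.33 to 11.56, which did not overlap. Eif2d, which delivers tRNA to ribosomes and helps to recycle them, rose by 0.44 (SE 0.10, adjusted p = 0.00232), but its vector groups overlapped because of the Hom-Ctrl arrays described below. The alpha subunit gene Eif2s1 was among the listed genes without a matched probe set, which were otherwise Eif1, Eif5, Eif3g, Eif3j, Eif3j1, Eif4a2, Eif4a3l2, Eif4g1, Eif4ebp3 and Eef1akmt4.

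Of the factors that scan for the start codon, 4 of 5 rose and Eif1b did not pass. Eif1ad, named for a domain like that of eIF1A, read 9.52, 9.64 and 9.82 (lowest, median, highest) with NMyc and 8.29, 8.74 and 9.01 with Ctrl, a log2 change of 0.96 (SE 0.10, adjusted p = 1.81e-06). Both genes of eIF1A rose, Eif1a by 0.60 (SE 0.09, adjusted p = 6.27e-05) and Eif1ax by 0.43 (SE 0.09, adjusted p = 0.00119). The NMyc and Ctrl arrays of Eif1ad, Eif1a and Eif1ax did not overlap. Eif5b, the GTPase that joins the ribosomal subunits, rose by 0.46 (SE 0.10, adjusted p = 0.00143), with 1 overlapping end at 8.31 on the lowest NMyc array and 8.34 on the highest Ctrl array. Eif1b had a change of 0.13 (SE 0.09, adjusted p = 0.314). Eif1a and Eif1ax encode nearly identical proteins, and how far their probes are shared was not tested.

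The subunits of eIF3 did not move as one. Of 12 measured, 8 rose, 1 fell and 3 did not pass, whereas 18.2% of all tested probe sets were higher and 15.5% lower. The log2 changes spanned -0.24 to 1.28 with a median of 0.31. Eif3b, a core scaffold subunit, had values of 10.30 and 10.48 in WT-NMyc, 10.40 and 10.34 in Het-NMyc, and 10.38 and 10.48 in Hom-NMyc. On the Ctrl arrays it read 9.11, 8.87 and 9.52 in WT, 9.06, 9.12 and 9.16 in Het, and 9.0 and 9.15 in Hom. The vectors were separate in every genotype, and the change was 1.28 (SE 0.10, 2.43-fold, adjusted p = 9.65e-08).

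Eif3l followed with a log2 change of 0.85 (SE 0.09, adjusted p = 1.02e-06), then Eif3i, which binds Eif3b, with 0.62 (SE 0.12, adjusted p = 0.00072), and Eif3d, which can itself bind the cap, with 0.51 (SE 0.09, adjusted p = 0.000266). Eif3j2, Eif3a, Eif3m and Eif3c rose by 0.35, 0.32, 0.31 and 0.29, with adjusted p of 0.00857, 0.00714, 0.00765 and 0.017. Eif3j1 had no matched probe set, and whether the probes of Eif3j2 also read it was not tested. Eif3k (0.18), Eif3e (0.02) and Eif3h (0.01) did not pass, at adjusted p of 0.0959, 0.9 and 0.921. Eif3f fell by 0.24 (SE 0.09, adjusted p = 0.0453), with values of 10.89, 10.98 and 11.14 (lowest, median, highest) with NMyc and 10.94, 11.25 and 11.41 with Ctrl. These ranges overlapped, and the call for Eif3f was lost without the run 1 arrays and in 16 of 22 alternative settings in all, with adjusted p up to 0.208. It was lower in all 5 differences within runs, which use arrays that also gave the call.

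In eIF4F and its helpers 8 of 11 genes rose, 1 fell and 2 did not pass. Eif4e, which encodes the cap-binding protein, read 10.28 and 10.43 in WT-NMyc, 10.22 and 10.49 in Het-NMyc, and 10.43 and 10.51 in Hom-NMyc. The Ctrl values were 9.50, 8.85 and 9.35 in WT, 9.56, 9.47 and 9.34 in Het, and 9.69 and 9.83 in Hom. There was no overlap, and the log2 change was 0.91 (SE 0.11, 1.88-fold, adjusted p = 5.46e-06).

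The helicase gene Eif4a1 had values of 12.02, 12.15 and 12.26 (lowest, median, highest) with NMyc and 11.25, 11.43 and 11.59 with Ctrl, a log2 change of 0.72 (SE 0.08, adjusted p = 2.69e-06). Eif4a3, a related helicase of the exon junction complex, rose by 0.76 (SE 0.08, adjusted p = 2.05e-06), and Eif4h, a helper of the helicase, by 0.38 (SE 0.08, adjusted p = 0.00117). All 3 had NMyc arrays above all Ctrl arrays. Eif4a3l1, a close copy of Eif4a3, rose by 0.33 (SE 0.11, adjusted p = 0.0226), which is uncertain because near-identical copies can share probes, and its call was lost in 4 of 22 settings with adjusted p up to 0.0883. Of the scaffolds, Eif4g2, which lacks the part that binds eIF4E, rose by 0.61 (SE 0.11, adjusted p = 0.000455) and Eif4g3 by 0.42 (SE 0.09, adjusted p = 0.00176). Eif4b and Eif4e1b did not pass, with changes of 0.15 and -0.08 (adjusted p 0.235 and 0.735).

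Members of the eIF4E family went different ways. Eif4e3, an atypical cap-binding relative, had log2 values of 7.81 and 7.71 in WT-NMyc, 7.92 and 7.60 in Het-NMyc and 8.02 and 7.93 in Hom-NMyc, against 8.16, 8.06 and 8.07 in WT-Ctrl, 8.23, 8.32 and 7.87 in Het-Ctrl and 8.40 and 8.31 in Hom-Ctrl. Within each genotype except Het the arrays were separate, and the gene fell by 0.36 (SE 0.09, adjusted p = 0.00584). Its call held in all 22 settings. Eif4e2, which binds the cap without recruiting eIF4G and can block translation, rose by 0.56 (SE 0.08, adjusted p = 3.03e-05).

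Because probe sets cannot be compared in level, the paralogs were compared by the difference of their log2 values within each array, and 7 pairs were run. The Eif4e minus Eif4e3 difference lay between 2.29 and 2.89 on NMyc arrays and between 0.79 and 1.52 on Ctrl arrays. It was greater with NMyc by 1.29 (exact permutation test, two-sided, p = 0.000666, adjusted over 7 pairs 0.00117), and that p is the smallest the 14 arrays allow. For every pair the permutation exchanged the 14 arrays freely across genotypes and code runs. Its p takes no account of either, although run 1 holds only Ctrl arrays. Eif4e also rose more than Eif4e2, by 0.37, with the same exact permutation p and adjusted p. The Eif5a minus Eif5a2 difference was greater by 0.58 with NMyc, at that same exact permutation p, and by 0.34 within code run 2. Eif5a2 was close to background and Eif5a above the 99th percentile of values, both described below, and the part of either range in this difference was not tested. The other pair past the threshold was Eif4ebp1 and Eif4ebp2. For Eif1a and Eif1ax the change of the difference was 0.16 (exact permutation p = 0.176, adjusted 0.247), for Eef1a1 and Eef1a2 0.03 (p = 0.803, adjusted 0.803), and for Eef2 and its kinase Eef2k -0.14 (p = 0.213, adjusted 0.249).

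The proteins that hold eIF4E back were unequal as well. Eif4ebp2, an mTOR-controlled repressor of eIF4E, read 9.64, 9.69 and 9.88 (lowest, median, highest) with NMyc and 8.79, 9.29 and 9.42 with Ctrl, without overlap, and rose by 0.50 on the log2 scale (SE 0.10, adjusted p = 0.00118). Eif4ebp1, its better-known paralog, had all 6 NMyc arrays (median 9.72) inside the range of its Ctrl arrays, 9.43 to 10.20, and its change of -0.07 (SE 0.10, adjusted p = 0.674) did not pass. The Eif4ebp1 minus Eif4ebp2 difference changed by -0.59 with NMyc (exact permutation p = 0.000666, adjusted 0.00117). Eif4enif1, which carries eIF4E into the nucleus and into processing bodies, rose by 0.46 (SE 0.09, adjusted p = 0.000535), and its 6 NMyc arrays lay above its 8 Ctrl arrays.

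Eif6, which keeps the large ribosomal subunit from joining too early and takes part in its assembly, was uniform with NMyc. Its log2 values were 10.15 and 10.17 in WT-NMyc, 10.28 and 10.20 in Het-NMyc, and 10.20 and 10.19 in Hom-NMyc, against 9.09, 9.39 and 9.41 in WT-Ctrl, 8.84, 9.35 and 9.50 in Het-Ctrl, and 8.78 and 9.29 in Hom-Ctrl. The run 1 array was the lowest Ctrl array of each genotype, and the change was 1.01 (SE 0.12, 2.02-fold, adjusted p = 4.51e-06). Eif5a, the hypusine-bearing factor that frees ribosomes stalled on difficult sequences, read 12.69, 12.86 and 12.93 (lowest, median, highest) with NMyc and 11.61, 11.90 and 12.22 with Ctrl (change 0.89, SE 0.11, 1.85-fold, adjusted p = 7.36e-06). Eif6 and Eif5a arrays did not overlap between the vectors. The paralog Eif5a2 was close to background, more than 1 log2 unit over the negative control sets' median on only 2 arrays. Its rise of 0.30 (SE 0.11, adjusted p = 0.0412) was not called in 14 of 22 settings, with adjusted p up to 0.165, and without the run 1 arrays 2 of these 3 genes passed.

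Of the 6 genes named Eef1, 3 rose, and 4 did without the run 1 arrays. Eef1e1, in spite of its name a component of the multi-tRNA synthetase complex, read 11.23, 11.34 and 11.39 (lowest, median, highest) with NMyc and 9.92, 10.06 and 10.45 with Ctrl, and rose by 1.13 on the log2 scale (SE 0.08, 2.19-fold, adjusted p = 2.47e-08). Eef1d, a guanine exchange subunit for eEF1A, rose by 0.82 (SE 0.09, adjusted p = 1.63e-06) and Eef1g, which anchors that exchange complex, by 0.42 (SE 0.08, adjusted p = 0.000606). Eef1e1 and Eef1d had separate vector groups, and Eef1g did not.

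Eef1a1, the tRNA carrier of most tissues, lay between 13.11 and 13.23 with NMyc and between 13.05 and 13.20 with Ctrl, and its log2 change was 0.03 (SE 0.07, adjusted p = 0.811). Eef1a2, the carrier of muscle and nerve, changed by -0.01 (SE 0.11, adjusted p = 0.977), and Eef1b2, the other exchange subunit, by 0.19 (SE 0.08, adjusted p = 0.084). Eef2, the translocase, ranged from 12.72 to 12.93 with NMyc and from 12.60 to 12.80 with Ctrl (change 0.12, SE 0.08, adjusted p = 0.263). Its inhibitory kinase Eef2k rose by 0.27 (SE 0.10, adjusted p = 0.0389), a call lost in 12 of 22 settings with adjusted p up to 0.145. The means of Eef1a1, Eef1b2, Eef1g, Eef2 and Eif5a exceeded 11.9, the 99th percentile of the tested probe sets' values, a range in which arrays may compress differences, and of these Eif5a and Eef1g rose. Processed copies of Eef1a1 in the genome could share its probes.

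Of the 5 methyltransferases of elongation factors, 3 rose. Eef1akmt1, a lysine methyltransferase of eEF1A, had values of 7.43, 7.68 and 7.75 (lowest, median, highest) with NMyc and 5.86, 6.38 and 6.63 with Ctrl, and rose by 1.26 on the log2 scale (SE 0.11, 2.39-fold, adjusted p = 1.83e-07). Eef1aknmt, which methylates the N-terminus and a lysine of eEF1A, rose by 0.79 (SE 0.08, adjusted p = 1.8e-06). Both had NMyc arrays above all Ctrl arrays. Eef2kmt, which methylates eEF2, rose by 0.93 (SE 0.16, adjusted p = 0.00018), with values of 6.79 to 7.53 on NMyc arrays and 5.55 to 6.86 on Ctrl arrays that overlapped slightly. Eef1akmt2 (0.27, SE 0.11, adjusted p = 0.0735) and Eef1akmt3 (0.00, SE 0.08, adjusted p = 0.975) did not pass.

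A subset of these messengers starts with a terminal oligopyrimidine (TOP) tract, through which mTOR controls their translation as a class. Of the 9 listed TOP messengers, 2 rose (Eef1d and Eef1g), 1 fell (Eif3f) and 6 did not pass, with a median log2 change of 0.12. Of all tested probe sets, 18.2% were higher and 15.5% lower, so the counts of these 9 are near the background. Of the other 46 factors 38 rose and 1 fell (Eif4e3), with a median of 0.51. Without the run 1 arrays the counts were 3 higher and 0 lower of the 9, and 37 higher and 1 lower of the 46. The difference between the subsets was not tested, and the TOP messengers included 4 of the 5 genes above the 99th percentile.

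**Figure D3:**
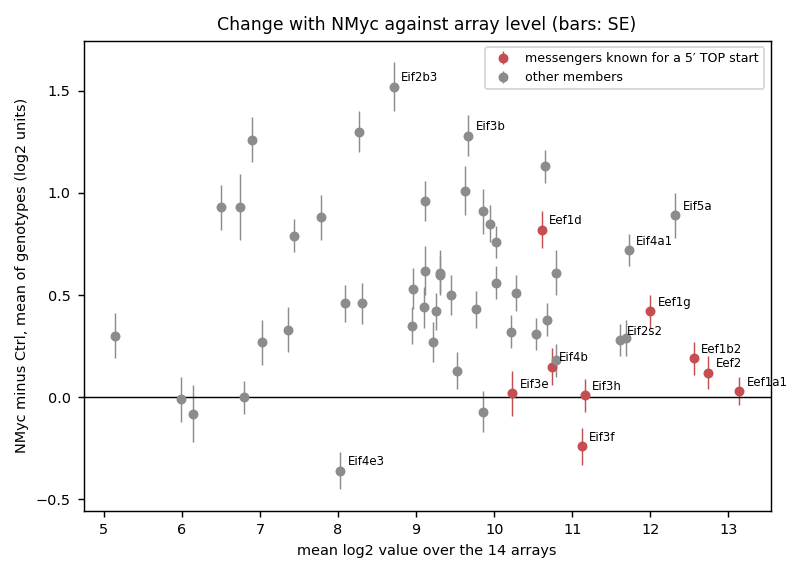
Log2 change with NMyc (vertical axis, bars are SE) against the mean log2 value over the 14 arrays (horizontal axis), with the 9 messengers listed for a TOP start in red and the other 46 factors in grey. Most red points lie near 0 and Eef1d is the highest of them. Among the grey points, Eif5a lies at a mean of 12.32 and Eif4a1 at 11.72, both above 0.

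Rises were called within each genotype. In Hom cells 24 factors rose (10.7% of all probe sets did), in Het cells 29 (11.1%) and in WT cells 25 (10.1%), and no factor fell in any, against 7.01%, 8.0% and 9.05% of all probe sets. Eif4e3 was called lower in Het with the replicate number as a block (-0.45, limma adjusted p = 0.0473) and without Het-Ctrl replicate 3 (-0.51, limma adjusted p = 0.0336). The median log2 changes were 0.46 in Hom, 0.50 in Het and 0.45 in WT. Called higher in each of the 3 genotypes were 18 factors (32.7%), against 6.57% of all probe sets: Eif2b1, Eif2b3, Eif2b4, Eif2b5, Eif1a, Eif1ad, Eif3b, Eif3l, Eif4e, Eif4e2, Eif4a1, Eif4a3, Eif5a, Eif6, Eef1d, Eef1e1, Eef1akmt1 and Eef1aknmt. A further 8 were called in 2 genotypes, 8 in 1 and 21 in none. The change was above 0 in all 3 genotypes for 45 factors (81.8%) and below 0 in all 3 for 2 (3.6%), against 27.0% and 28.7% of all probe sets. The 3 comparisons contrast different arrays, but their standard errors rest on a spread estimate shared by all 14 arrays, so the calls are not independent. With 2 NMyc arrays each, these counts depended on single arrays: 12 in Hom without Hom-NMyc replicate 2, 19 in Het without Het-NMyc replicate 2, and 14 in WT without WT-NMyc replicate 2. Without the run 1 arrays they were 18 in Hom, 28 in Het and 26 in WT, with Hom-Ctrl then a single array.

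The NMyc effect itself was compared between genotypes. No factor passed for the effect in Hom minus that in WT, the effect in Het minus that in WT, or the effect in Hom minus that in Het. Of all probe sets, 0.0721% passed in the higher and 0.00901% in the lower direction for Hom minus WT, 0.0225% and 0.00901% for Hom minus Het, and 0.0% for Het minus WT. At an unadjusted limma p under 0.05 there were 3, 2 and 2 factors for Hom minus WT, Het minus WT and Hom minus Het, against 8.54%, 3.29% and 6.92% of all probe sets. For Eif4enif1 the change was 0.81 in Hom, 0.25 in Het and 0.33 in WT, and the effect differed by 0.56 between Hom and Het (SE 0.22, limma adjusted p = 0.609). With 2 NMyc arrays a genotype, a p that misses the threshold does not show that the effects were alike.

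**Figure D4:**
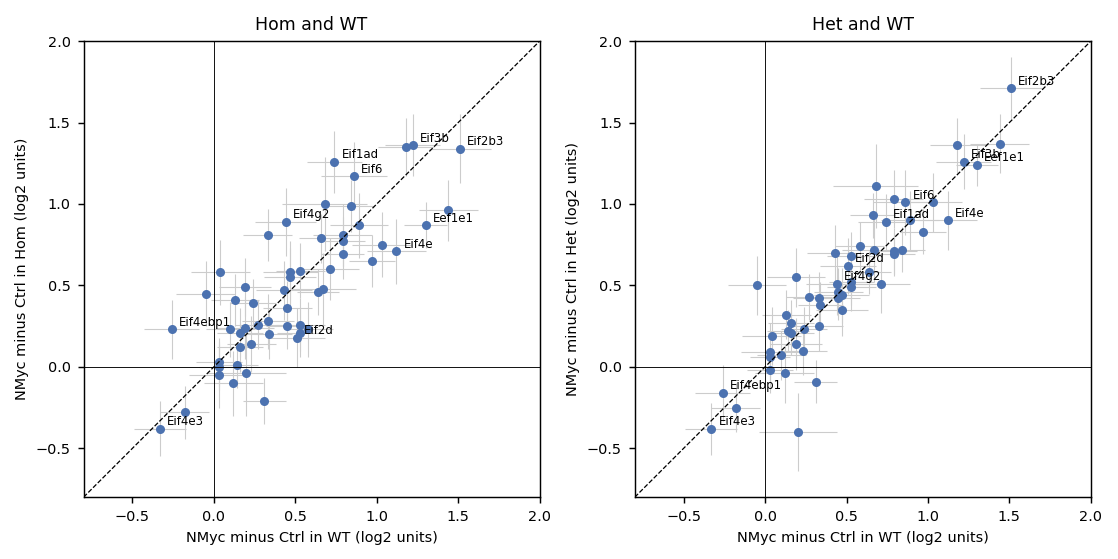
Log2 change with NMyc of each of the 55 factors in Hom (left panel, vertical axis) and in Het (right panel, vertical axis) against that in WT (horizontal axes), with standard errors in grey and the dashed line marking equal change. Most points lie above 0 on both axes, and no factor passed the test for a difference between genotypes.

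Between Polg genotypes 1 factor passed the test. In Ctrl cells Eif2d read 9.40 and 9.59 in Hom, against 8.98, 8.60 and 8.52 in Het and 8.68, 8.43 and 8.86 in WT. Both Hom arrays lay above all 6 Het and WT arrays. The difference was 0.84 for Hom minus WT (SE 0.17, 1.79-fold, adjusted p = 0.0119) and 0.79 for Hom minus Het (SE 0.17, 1.73-fold, adjusted p = 0.0214). In these comparisons 2.03% of all probe sets were higher and 1.88% lower for Hom minus WT, and 1.34% and 1.06% for Hom minus Het, so 1 factor of 55 (1.8%) is near the background. With NMyc, Eif2d read 9.74 and 9.62 in Hom, 9.36 and 9.30 in Het, and 9.14 and 9.17 in WT. The order was the same, and the Hom minus WT difference of 0.52 (SE 0.18, adjusted p = 0.453) did not pass. Without the run 1 arrays the Ctrl differences were 0.95 for Hom minus WT (adjusted p = 0.032) and 1.02 for Hom minus Het (adjusted p = 0.0324), each with a single Hom-Ctrl array. Neither difference was called with only the groups compared in the fit (adjusted p = 0.0808 for Hom minus WT and 0.0811 for Hom minus Het) or without Hom-Ctrl replicate 2 (adjusted p = 0.144 and 0.207). Hom minus Het was also not called with only AFFX sets left out (adjusted p = 0.0539), or without Het-Ctrl replicate 2 (adjusted p = 0.0638) or replicate 3 (adjusted p = 0.0928).

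No other factor passed for Hom minus WT or Hom minus Het in Ctrl cells in the fit used here. With a trended and robust spread in limma, Eef1g (0.44, adjusted p = 0.0107), Eef1e1 (0.43, adjusted p = 0.0181), Eif4g2 (-0.64, adjusted p = 0.0239), Eif3m (0.44, adjusted p = 0.0263) and Eif3d (0.48, adjusted p = 0.0316) also passed for Hom minus WT. In that fit Eef1g (adjusted p = 0.012), Eif3d (adjusted p = 0.0216) and Eif3m (adjusted p = 0.0458) passed for Hom minus Het. Eef1e1 also passed with the filter on dim probe sets (adjusted p = 0.0422), Eif4g2 without WT-Ctrl replicate 2 (adjusted p = 0.0204) and Eif2b3 without WT-Ctrl replicate 1 (0.62, adjusted p = 0.0496), each for Hom minus WT, and Eif3d for Hom minus Het without WT-Ctrl replicate 2 (adjusted p = 0.0492). At an unadjusted level, with limma, 13 of 55 had a p under 0.05 for Hom minus WT, against 17.0% of all probe sets, and 8 did for Hom minus Het, against 14.9%. Eif4g2 read 10.20 and 10.01 in Hom-Ctrl, against 10.69, 10.42 and 10.81 in Het-Ctrl and 10.77, 10.36 and 11.09 in WT-Ctrl. Both Hom values were the lowest of the 8, and the Hom minus WT difference was -0.64 (SE 0.19, adjusted p = 0.0826). Eef1e1 read 10.44 and 10.45 in Hom-Ctrl, against 10.06, 10.07 and 10.19 in Het-Ctrl and 10.06, 9.92 and 10.06 in WT-Ctrl, with a Hom minus WT difference of 0.43 (SE 0.13, adjusted p = 0.0817). Eif4ebp1 had a Hom minus WT difference of -0.41 in Ctrl cells (SE 0.17, adjusted p = 0.209). Eef1g, Eif3m, Eif3d, Eif2b3, Eif4g2, Eef1e1 and Eif4ebp1 in these comparisons, and Eif4enif1 above, were picked out after their values were seen.

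No factor passed for Het minus WT in Ctrl cells, or in any genotype comparison in NMyc cells, where 0.0% of all probe sets passed. The counts at an unadjusted limma p under 0.05 were 1 for Het minus WT in Ctrl (4.21% of all), and 2 for Hom minus WT (8.43%), 1 for Het minus WT (2.59%) and 0 for Hom minus Het (4.92%) in NMyc cells.

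**Figure D5:**
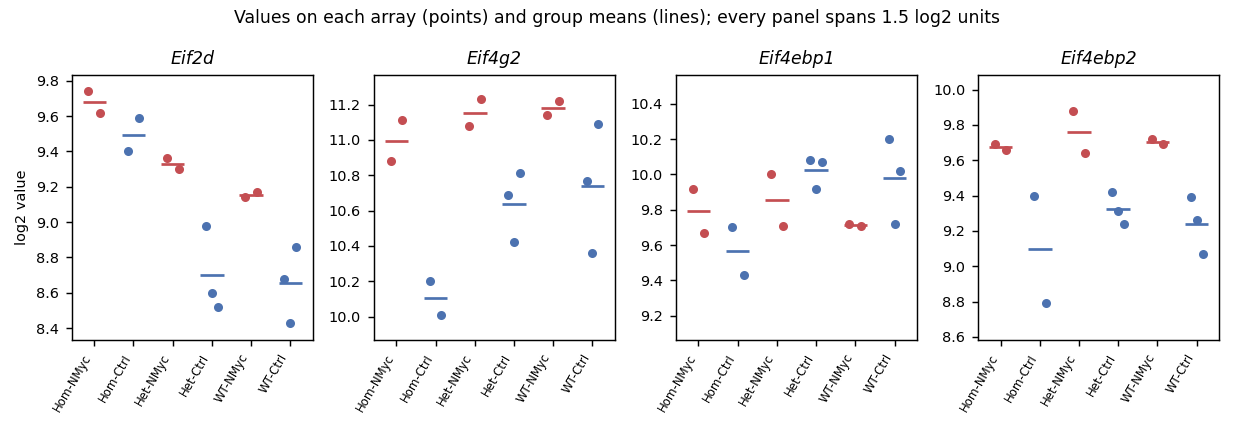
Log2 value on each array (points) and group mean (lines) for 4 factors, with NMyc in red and Ctrl in blue and genotypes ordered Hom, Het, WT, every panel spanning 1.5 log2 units. Eif2d is highest in Hom with either vector, Eif4g2 is lowest in Hom-Ctrl, and Eif4ebp2 but not Eif4ebp1 is separate between the vectors.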

How the data were processed

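RNA of 14 samples was hybridised to Affymetrix whole-transcript arrays. The authors used Expression Console, per the submitters' processing notes, and deposited log2 values, 1 for each probe set on each array. Not given in the sources used here are the version, summary method, normalization and genome build. The array medians lay within 0.084 of each other, and scaling of this kind can remove a change shared by most transcripts. Arrays have no read depth, so their number limits the precision.

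The table holds 28846 probe sets, of which 6640 were recognised as controls by their IDs, leaving 22206 for the tests. The fixed wording of the test names control sets by the start of their ID (AFFX, 31 sets), and that count is an alternative. Symbols came from the platform annotation, and RefSeq changed 0 of them. Each of the 55 factors had 1 probe set, and all exceeded the negative control sets' median on all 14 arrays.

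limma 3.58.1 in R 4.3.3 fitted 6 group means to all 14 arrays. It left 8 residual and 7.3 prior degrees of freedom. Changes are contrasts with standard errors (SE), tested on both sides, and every adjusted p of a gene is limma's after Benjamini-Hochberg adjustment across the 22206 probe sets. An adjusted p under 0.05 is a call. Paralog pairs used exact permutation in scipy 1.17.1 under Python 3.11.15. The fit was tested on simulated data with the same groups, but with independent values and no run effect. For the average over genotypes, 57% of simulated log2 changes of 0.5 and 98% of changes of 1 were called. Within Hom these shares were 2% and 54%, so changes of the size seen for many factors can be missed there.

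The members, lists, tests and alternatives were chosen with earlier results of these data known. Named with values were up to 12 called factors at either end of the range of changes, every factor called between genotypes, the members of the paralog pairs and a set of core factors, and up to 3 genes of smallest p in each pathway list. Others are said to be chosen after their values were seen, or account for a role group.

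Replicate numbers were checked as pairs by correlating deviations from group means. Same-numbered arrays of WT-Ctrl and Het-Ctrl correlated at 0.24 to 0.27 (3 pairs, which are also of the same code run). For these pairs the number and the run cannot be told apart. Arrays of the same number but different code runs correlated at -0.13 to 0.03 (18 pairs). Each of the 18 pairs includes an NMyc array, and both arrays of an NMyc group deviate from their mean equally in opposite directions. Their correlations are therefore fixed as the opposite of those with the group's other array. They cannot show whether the number pairs samples across runs. Alternatives covered scaling, control sets, dim probe sets, code run and replicate blocks, the spread model, the arrays fitted and each array left out.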

Additional observations from a re-analysis of the deposited data

How the results depend on the processing

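Of the 42 factors called with NMyc, 38 kept the call in all 22 alternative settings (quantile or median scaling, control sets, dim filter, code run or replicate block, runs with both vectors, spread model, each array left out), and none of the 42 changed sign. Of the 13 not called, Eef1b2 was called in 5 settings (adjusted p down to 0.00997), Eef1akmt2 in 3 (down to 0.0413) and Eif3k in 2 (down to 0.0329). Leaving out 1 array gave 38 to 42 called (37 to 40 higher and 1 to 2 lower), and within genotypes 14 to 27 (WT), 19 to 31 (Het) and 12 to 26 (Hom). The number lower was 1 with median centring, with only AFFX sets left out, with the code run as a block and with only the runs that hold both vectors, where Eif4e3 remained. Each of 12 arrays, all except WT-Ctrl replicate 3 and Het-Ctrl replicate 3, gave 1 lower when left out. For Hom minus WT in Ctrl, where 1 factor was called, the count was 2 with the dim filter, 6 with a trended and robust spread and 0 with only the groups compared, and 0 to 2 leaving out 1 array (0 without Hom-Ctrl replicate 2, 2 without WT-Ctrl replicate 1 or 2). For Hom minus Het in Ctrl it was 0 with only AFFX sets left out, 4 with a trended and robust spread and 0 with only the groups compared, and 0 to 2 leaving out 1 array (0 without Hom-Ctrl replicate 2, Het-Ctrl replicate 2 or 3, and 2 without WT-Ctrl replicate 2). The cause was not tested. With the replicate number as a block, 40 factors were higher and 2 lower with NMyc, within genotypes 27 (WT), 31 (Het, of which Eif4e3 was lower) and 24 (Hom) were called, and no count moved by more than 1.5 times.

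Changes that did not pass and crossed 0 were those of Eef1a2 (0.05 with quantile and 0.04 with median scaling, -0.06 to 0.05 leaving out 1 array), Eif3e (-0.05 with quantile scaling, -0.04 to 0.09), Eif3h (-0.03 with quantile scaling, -0.00314 with the replicate block, -0.00373 to 0.04), Eef1akmt3 (-0.01 with the replicate block, -0.03 to 0.04), Eif4e1b (0.02 with only runs that hold both vectors, -0.21 to 0.05) and Eif4ebp1 (0.02 with the code run as a block and with only runs that hold both vectors). The Eef1a1 minus Eef1a2 difference was -0.02 with quantile scaling and -0.04 to 0.08 leaving out 1 array. Within code run 3 the Eif4ebp1 minus Eif4ebp2 difference was -0.86, and within code run 2 the Eif5a minus Eif5a2 difference was 0.34. Fitting only the groups compared is the same fit for the average over genotypes, and the lowest-mean probe set is the same one for every factor, so neither gave a further value.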

Other observations

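Genes that act on the translation factors moved in both directions with NMyc. All 8 measured hypusine and diphthamide enzymes, which modify eIF5A and eEF2, rose, with a median log2 change of 0.69 (Dph6 1.52, Dph3 0.88 and Dph7 0.76, adjusted p 1.84e-05, 1.7e-05 and 1.04e-05). Of 6 eIF2 kinases and phosphatase subunits, 4 fell and 1 rose, with a median of -0.30, and the phosphatase subunit Ppp1r15a, which helps to reverse eIF2 phosphorylation, fell by 0.81 (adjusted p = 2.19e-05), Eif2ak2 by 0.40 (adjusted p = 0.00411) and Ppp1r15b by 0.32 (adjusted p = 0.00321). Of 15 genes of mTOR and MNK control, 7 rose and 4 fell, and the 3 of smallest p were the eIF4E kinase gene Mknk1 (-0.62, adjusted p = 4.62e-05) and the mTOR inhibitors Sesn2 (-0.70, adjusted p = 0.000111) and Ddit4 (-0.72, adjusted p = 0.000269). These counts stand beside 18.2% higher and 15.5% lower of all probe sets.

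Of 13 genes of termination, recycling and rescue, 9 rose and 1 fell, with a median log2 change of 0.32. The release factor Gspt1 rose by 1.20 (adjusted p = 2.32e-07) and Abcf1 by 0.76 (adjusted p = 2.61e-06), while the rescue factor Gtpbp2 fell by 1.64 (adjusted p = 2.26e-08). Of the 9 that rose, Abcf1, Dhx29 (0.32, adjusted p = 0.00739) and Ddx3x (0.30, adjusted p = 0.0117) are known to act in initiation and scanning, and the last 2 were picked out after their values were seen. Of 7 poly(A) binding proteins and partners 3 rose, Pabpc4 by 1.23 (adjusted p = 9.31e-08), Larp1 by 0.62 (adjusted p = 6.89e-06) and Pabpc1 by 0.21 (adjusted p = 0.0392). Among the mitochondrial translation factors 10 of 11 rose, with a median of 0.60, and the 3 of smallest p were the elongation factors Tufm (1.28, adjusted p = 2.17e-08) and Gfm1 (1.14, adjusted p = 7.52e-08) and the elongation factor homolog Guf1 (0.70, adjusted p = 3.61e-05).

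Eif2s3x, the X-linked gene of the gamma subunit of eIF2, is not among the 55 factors. Its log2 values were 10.41, 10.70 and 11.10 (lowest, median, highest) with NMyc and 9.56, 10.03 and 10.48 with Ctrl, a change of 0.64 (SE 0.13, adjusted p = 0.000796). The Ctrl arrays of run 1, which read lowest for the Y-linked Eif2s3y, lay at 10.20 to 10.48 for Eif2s3x, and the other Ctrl arrays at 9.56 to 10.46. By genotype, the run 1 array read 10.20 in WT against 9.59 and 9.80 on the others. In Het it read 10.31 against 9.56 and 9.87, and in Hom 10.48 against 10.46.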
